A study of Macaca mulatta with 29 samples.

Results

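Collagens and laminins are the main structural proteins of the matrix that cells build around themselves. The set described here holds the genes for their chains together with fibronectin (FN1), vitronectin (VTN), the nidogens NID1 and NID2 and the proteoglycan perlecan (HSPG2). Members were chosen by name alone, as every row of the deposited expression table whose symbol was that of a collagen alpha chain, a laminin chain or 1 of these 5 genes. This gave 43 of the 16048 genes in the table, of which 28 code for collagen chains and 10 for laminin chains. Agrin (AGRN), also named in the rule, was not analysed here.

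The cells were rhesus macaque embryonic stem cells of the ORMES-6 line, grown in 5% oxygen on mitotically inactivated mouse embryonic fibroblasts as feeder cells. All groups, the controls included, shared this line, these feeders and the methanol in which the compounds were dissolved. The groups were methanol vehicle (5 libraries), atrazine at 30 uM (5), bisphenol A at 10 nM (5), bis(2-ethylhexyl) phthalate or DEHP at 5 uM (4), perfluorooctanoic acid or PFOA at 100 nM (5) and tributyltin chloride at 25 nM (5), each applied for 4 weeks. Every group was grown in the wells of 1 plate, so the effect of a compound and that of its plate cannot be told apart, and p-values measure only the spread between these libraries of 1 cell line.

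A basement membrane is a thin sheet on which epithelial and pluripotent cells sit. Laminin, a trimer of an alpha, a beta and a gamma chain, assembles at the cell surface, a separate network of type IV collagen forms beside it, and nidogens and perlecan link the networks. Fibrillar collagens such as types I, III, V and XI instead build the fibres of connective tissue and are made in quantity by fibroblasts, while fibronectin is deposited by many cell types and carries binding sites for integrins. Pluripotent stem cells are known to make laminins with the LAMA1 and LAMA5 chains and to need laminin, vitronectin or a feeder layer to attach.

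Levels are in FPKM, read fragments scaled to transcript length and to the mapped total of the library. The RNA was amplified, which can change relative levels, so comparisons between genes describe these values and not transcript numbers. The low values of the table fell on steps worth 1 read, which gave the relative depth of each library. The bisphenol A libraries held 14.2 to 27.2% of the reads of the deepest library and the others 41.2 to 100%. The highest of 9 pluripotency genes were LIN28A with a mean of 576 FPKM and POU5F1 with 522 FPKM, and the lowest was ZFP42 with 6.79 FPKM. The summed level of 9 endoderm markers ranged from 5.74 to 12.2 FPKM and that of 6 trophoblast markers from 2.12 to 5.77 FPKM. The 5 endothelial markers summed to 25.3 to 42.0 FPKM, most of it KDR and TEK.

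Of the 43 genes, 29 reached a mean level of 1 FPKM and entered the tests, and 14 did not. Counted over all members, 7 had a mean of at least 20 FPKM, 9 lay from 5 to 20 FPKM and 13 from 1 to 5 FPKM. Below, each class of chains is described in turn, from the basement membrane outwards.

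**Figure D1:**
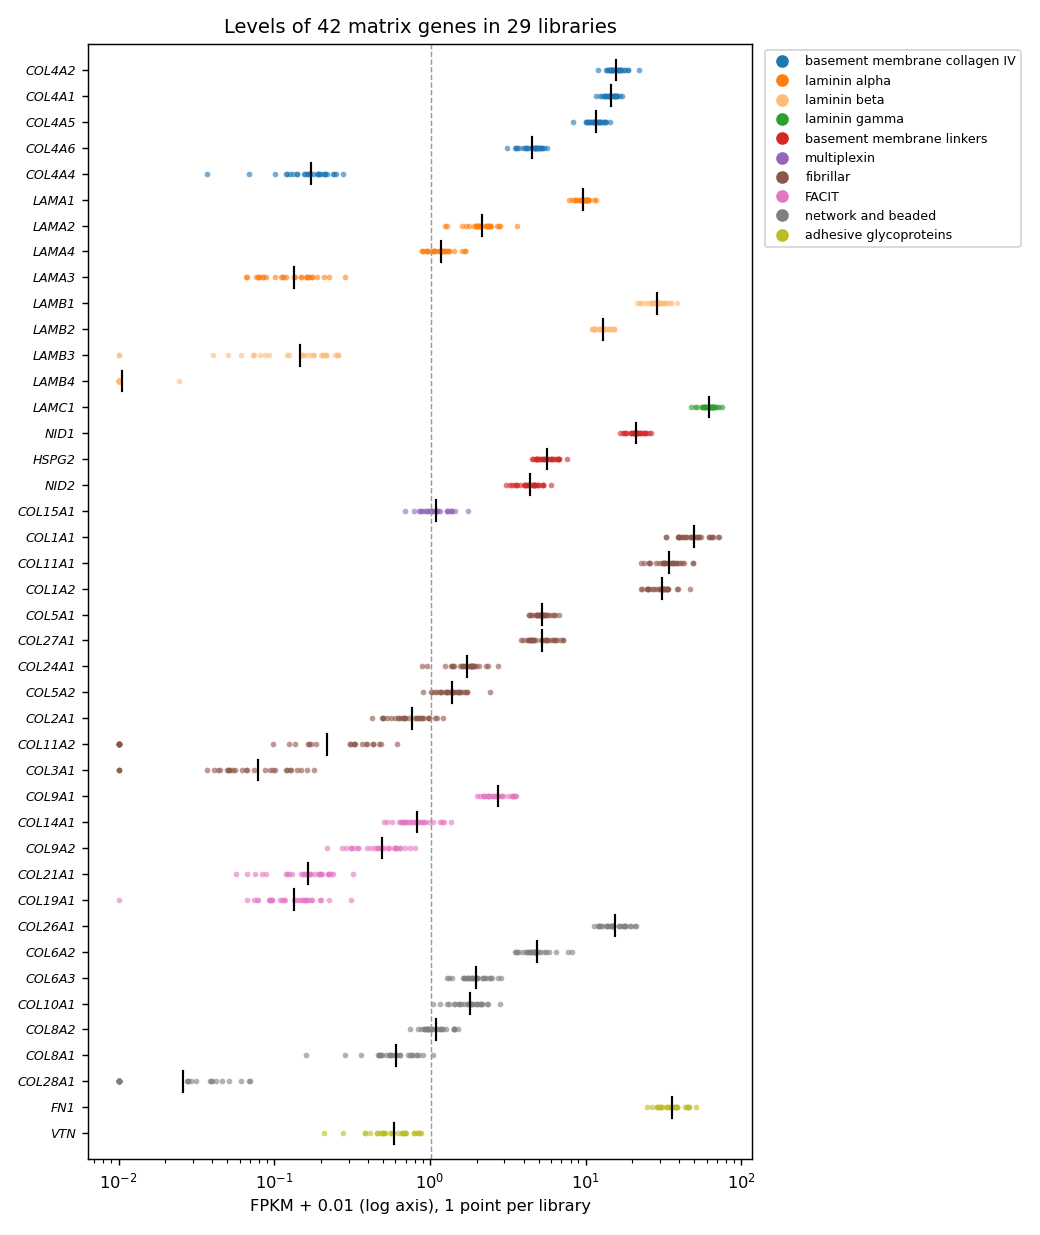
Level of 42 of the genes in each of the 29 libraries, as FPKM + 0.01 on a log axis, with 1 point per library, a black bar at the mean and a dashed line at 1 FPKM. LAMC1, COL1A1, FN1, COL11A1 and COL1A2 stand highest, and COL3A1 lies far below COL1A1, whose mean is 726 times as high.

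Type IV collagen, the sheet-forming collagen of basement membranes, was represented by 5 of its 6 chains. COL4A2 averaged 15.7 ± 2.01 FPKM (SD, n = 29) and COL4A1 14.5 ± 1.24 FPKM. These chains form the ubiquitous trimer, their ranges overlapped, and the ratio of COL4A1 to COL4A2 was 0.927 ± 0.0852 over the libraries. COL4A5 averaged 11.6 ± 1.29 FPKM and COL4A6, its partner in a more restricted trimer, 4.54 ± 0.624 FPKM, a level below COL4A5 in all 29 libraries without overlap. COL4A4, a chain best known from the kidney, had a mean of 0.161 FPKM and at most 39 reads in a library. In the RefSeq annotation of the rhesus genome (T2T-MMU8v2.0), where all 43 symbols were found, COL4A1 and COL4A2 are neighbours whose gene models overlap by 203 bases, as are COL4A5 and COL4A6 without overlap, and since the counting of strand is not given here, reads in the overlap are of uncertain origin.

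Of the chains analysed here, the alpha and beta laminin families were each led by 1 chain. Among alpha chains, LAMA1, the chain of the early embryo, averaged 9.66 ± 0.845 FPKM (SD, n = 29), 4.46 times LAMA2 and without overlap. LAMA2, the chain of muscle and nerve basement membranes, averaged 2.17 ± 0.467 FPKM, and LAMA4, a chain of blood vessel walls, 1.17 ± 0.216 FPKM. The ranges of LAMA2 and LAMA4 overlapped, although LAMA2 was the higher in each of the 29 libraries. LAMA3, the chain of skin and other stratified epithelia, was near 0 at 0.125 FPKM. LAMA5 was not analysed here.

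LAMB1, LAMB2 and LAMC1 were higher than the alpha chains analysed here, which leave out LAMA5. LAMB1 averaged 28.9 ± 3.92 FPKM (SD, n = 29) and LAMB2 12.8 ± 1.42 FPKM, and the lowest LAMB1 value stood above the highest LAMB2 value. LAMC1, the gamma chain of most laminins, was the highest member of the whole set with 61.9 ± 6.21 FPKM. LAMB3, which pairs with LAMA3 in epithelia, averaged 0.136 FPKM. LAMB4, a little studied chain, was at 0.0144 FPKM in 1 library and at 0 in 28. Summed over chains, the alpha family without LAMA5 reached 13.1 ± 1.13 FPKM and the beta family 41.8 ± 3.64 FPKM. The alpha sum is therefore not that of the whole family. LAMC1 was therefore measured at 6.42 ± 0.555 times LAMA1 and at 2.16 ± 0.158 times LAMB1.

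Among the linkers, NID1 averaged 21.2 ± 2.38 FPKM (SD, n = 29), HSPG2 5.65 ± 0.781 FPKM and NID2 4.37 ± 0.70 FPKM. NID1 did not overlap with the other two, while HSPG2 and NID2 overlapped. COL15A1, a collagen that bridges basement membranes and the fibres beneath them, averaged 1.09 ± 0.227 FPKM.

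Fibrillar collagens had the largest summed level of any single class, 129 ± 14.4 FPKM (SD, n = 29), but it came from few chains. Basement membrane genes were split over several classes, the laminins by alpha, beta and gamma. The order of classes therefore does not rank fibrillar against basement membrane chains as a whole. COL1A1 averaged 50.0 ± 10.9 FPKM and COL1A2, the second chain of the same type I trimer, 30.8 ± 5.20 FPKM. COL11A1, a chain of type XI collagen that sets the diameter of cartilage fibrils, stood between them at 34.1 ± 6.63 FPKM, and the ranges of the 3 genes overlapped. COL5A1, whose type V collagen starts fibril assembly, averaged 5.25 ± 0.590 FPKM and its partner COL5A2 1.38 ± 0.298 FPKM. COL27A1 reached 5.25 FPKM and COL24A1 1.72 FPKM, both of them fibrillar chains of developing cartilage and bone. COL2A1, the main cartilage collagen, averaged 0.755 FPKM and COL11A2 0.208 FPKM.

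COL3A1, the type III chain that accompanies type I collagen in most connective tissue, was nearly absent from the table. Its mean was 0.0688 ± 0.0461 FPKM (SD, n = 29), with 0 to 10 reads in a library and 0 in 3 libraries. The mean of COL1A1 was 726 times that of COL3A1. COL5A2, the neighbour of COL3A1 in the genome, was at 20.1 times its mean.

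Of the other collagens, COL26A1 averaged 15.5 ± 2.68 FPKM (SD, n = 29), a level close to that of COL4A1. COL6A2 averaged 4.83 ± 1.08 FPKM and COL6A3 1.95 ± 0.390 FPKM, both chains of the beaded filaments of type VI collagen, and COL6A1 was not analysed here. COL10A1, the collagen of hypertrophic cartilage, averaged 1.79 FPKM and COL8A2, a short-chain network collagen, 1.08 FPKM. Among collagens that decorate fibril surfaces, COL9A1 averaged 2.71 ± 0.463 FPKM, while COL14A1 at 0.815 FPKM, COL9A2, COL19A1 and COL21A1 did not reach 1 FPKM, nor did COL8A1 and COL28A1. FN1 averaged 36.0 ± 6.59 FPKM, and VTN, a plasma protein made mainly by the liver, 0.575 ± 0.175 FPKM.

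Because colonies were lifted from mouse fibroblasts, fibroblast markers were measured beside the fibrillar chains. Of 19 such markers, 18 were in the table and 7 had a mean under 0.5 FPKM. DCN and LUM, proteoglycans of fibroblast matrix, were at 0 in 29 and 28 libraries, and the fibroblast transcription factors PRRX1 and TWIST2 had means of 0.0324 and 0.0622 FPKM. Of POSTN and S100A4, the means were 0.185 and 0.151 FPKM. The highest markers are also made by other cells: VIM at 173 FPKM, SPARC at 106 FPKM, TAGLN at 106 FPKM, THY1 at 25.0 FPKM and MMP2 at 19.2 FPKM. ACTA2 averaged 17.0 FPKM, PDGFRB 3.50 FPKM, DDR2 1.49 FPKM and FBN1 1.27 FPKM, each above 0 in all 29 libraries. The summed level of the 18 markers ranged from 383 to 525 FPKM, with group medians of 447 in vehicle, 444 in atrazine, 504 in bisphenol A, 452 in DEHP, 422 in PFOA and 444 in tributyltin.

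The marker list thus gave no single reading: 9 of its 18 genes passed the filter, while DCN and LUM, like the fibrillar chain COL3A1, were at or near 0 in the libraries where COL1A1, COL1A2 and COL11A1 were high. No source used here says what was done with reads of the mouse feeders, so a marker at 0 describes the table and not the dish, and the cells that the fibrillar reads came from cannot be told apart in bulk RNA. Nor can more cells of a type be told apart from more RNA per cell.

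Receptors for these proteins were read from a list of 22 genes. Integrin chains ITGA6 and ITGB1, which together bind laminin, averaged 134 and 126 FPKM, and the laminin receptor dystroglycan (DAG1) 79.3 FPKM. The collagen-binding chains ITGA1, ITGA2, ITGA10 and ITGA11 averaged 0.940, 1.95, 0.0589 and 0.389 FPKM. Of these receptors, 20 were in the table, 15 passed the filter, and in limma none of the 5 compounds gave a call among them (0 of 15). Of all genes tested, 1.25% were called with tributyltin, 0.19% with atrazine, 0.162% with PFOA, 0.00903% with DEHP and 0% with bisphenol A. At such shares, 0 calls among 15 genes say little about the receptors.

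Whether the compounds changed these chains was tested with limma on log2(FPKM + 1) over the 11080 genes whose mean reached 1 FPKM, with a call at an adjusted p under 0.05. Fold changes are on that log2 scale, which understates the change of low genes. The 5 compounds share the vehicle libraries, so the comparisons are not independent of each other.

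In the tributyltin group 1 of the 29 tested members fell, COL11A1, and 0 rose, in a comparison that called 1.25% of all genes tested. Levels of COL11A1 in the vehicle libraries were 37.9, 49.0, 41.7, 36.4 and 38.3 FPKM. In the tributyltin libraries they were 22.6, 25.9, 25.5, 32.0 and 23.9 FPKM. All 5 tributyltin libraries lay below all 5 vehicle libraries. The mean went from 40.7 ± 5.04 FPKM (SD, n = 5) to 26.0 ± 3.63 FPKM (SD, n = 5), and COL11A1 fell by 0.63 on the log2 scale (SE 0.11, limma adjusted p = 0.00135). The call held in each of the 39 alternative analyses, with limma adjusted p from 0.000348 to 0.0205. Many of these left out libraries of other compounds only, which leaves the estimate unchanged and alters little but the shared spread. Leaving out 1 library at a time gave changes from -0.70 to -0.56. The fit with a term for the feeder markers gave -0.63 (adjusted p = 0.00173). That term is the mean of the markers past the filter, without DCN, LUM, PRRX1 and TWIST2, so it cannot measure feeder content.

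No other member passed the test for tributyltin. COL1A1 averaged 57.5 FPKM against 47.1 FPKM in vehicle, with overlapping libraries (0.29, SE 0.17, adjusted p = 0.614), and COL1A2 30.8 against 30.5 FPKM (0.02, SE 0.11). The ratio of COL1A1 to COL11A1 was 1.19 ± 0.402 in vehicle and 2.27 ± 0.677 in tributyltin, with overlapping ranges. LAMA2 averaged 1.66 ± 0.251 FPKM (SD, n = 5) against 2.28 ± 0.293 FPKM (SD, n = 5), did not overlap with vehicle and did not pass the test (-0.30, adjusted p = 0.294). NID2 averaged 4.71 against 3.78 FPKM (0.25, adjusted p = 0.436). Of the 29 members, 23 had an estimate within 0.2 of 0, and the median member was at -0.01 beside -0.02 for all genes tested. The 3 members at an unadjusted p under 0.05 were 10.3% of those tested, beside 10.5% of all genes.

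**Figure D2:**
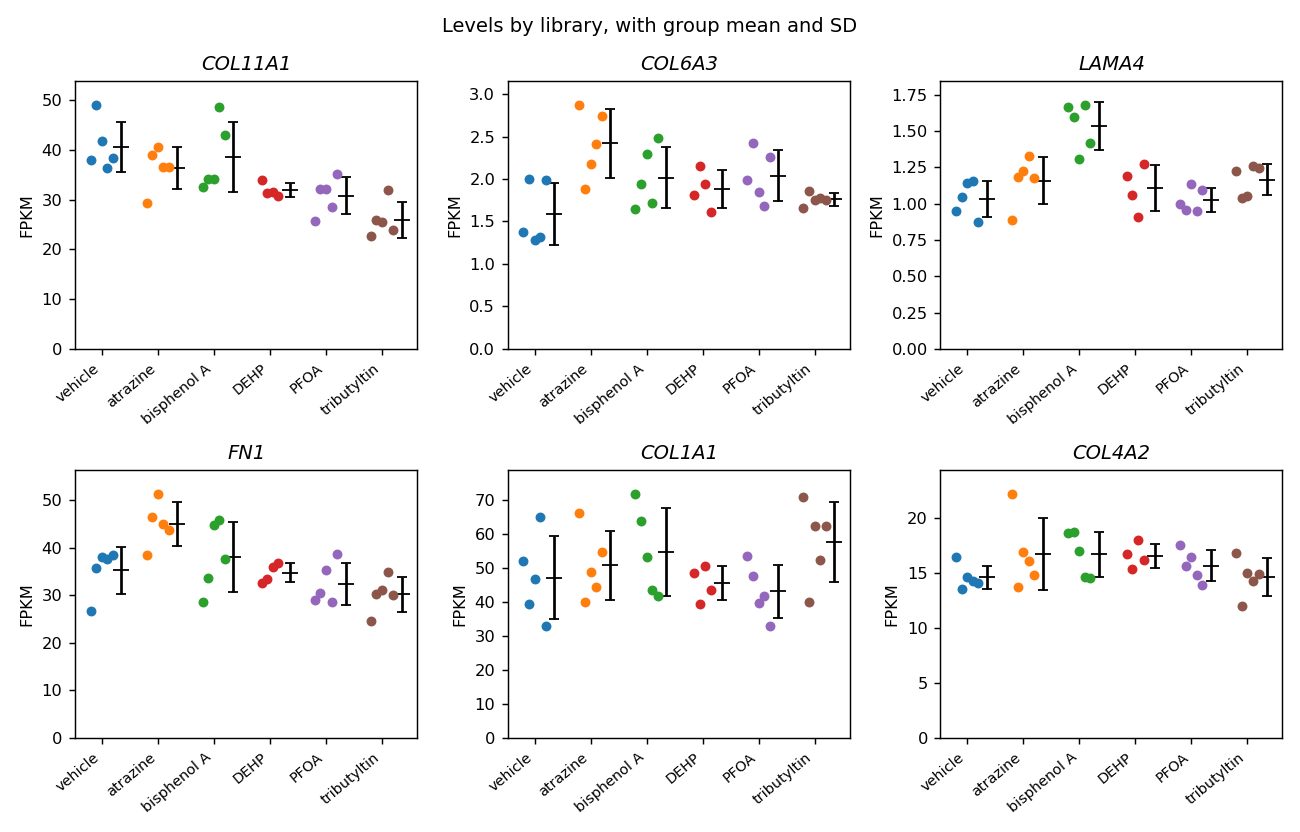
Levels in FPKM of 6 members in each library, by group, with the group mean and SD beside the points. For COL11A1 all 5 tributyltin libraries lie below all 5 vehicle libraries, and the COL1A1 groups overlap.

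COL11A1 was also lower, without a call, in other groups. The DEHP libraries read 34.0, 31.3, 31.6 and 30.8 FPKM and the PFOA libraries 25.7, 32.2, 32.2, 28.5 and 35.3 FPKM, all of them below the lowest vehicle library. The fold change was -0.33 (SE 0.12, adjusted p = 0.467) for DEHP and -0.39 (SE 0.11, adjusted p = 0.284) for PFOA. In the atrazine libraries, at 29.4, 38.9, 40.7, 36.5 and 36.5 FPKM, and the bisphenol A libraries, at 32.5, 34.2, 34.2, 48.7 and 43.0 FPKM, it overlapped with vehicle (-0.16, SE 0.11, and -0.09, SE 0.11). Against the mean of the other 4 compounds, a contrast added after these values were seen, tributyltin called 1.94% of all genes, and COL11A1 was the 1 member called (-0.39, SE 0.09, adjusted p = 0.0171). That call was lost on leaving out tributyltin library 1, 2 or 5 (adjusted p of 0.0809, 0.0534 and 0.0778). FN1 and LAMA2 followed with -0.29 each (adjusted p = 0.118 and 0.126). In this contrast 6 members (20.7%) had an unadjusted limma p under 0.05, beside 12.8% of all genes. The estimate was above 0 for 8 of 29 members (27.6%), beside 48.3% of all genes.

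Atrazine called 0 of the 29 members and 0.19% of all genes, and 6 members (20.7%) had an unadjusted p under 0.05, beside 6.88% of all genes. Its largest estimates were in COL6A3 and FN1. COL6A3 read 2.87, 1.89, 2.18, 2.41 and 2.75 FPKM with atrazine and 1.37, 1.99, 1.28, 1.32 and 1.99 FPKM in vehicle, so the groups overlapped (0.40, SE 0.10, adjusted p = 0.135). FN1 read 38.6, 46.4, 51.3, 45.1 and 43.8 FPKM with atrazine and 26.6, 35.7, 38.1, 37.5 and 38.4 FPKM in vehicle, where every atrazine library was the higher (0.35, SE 0.12, adjusted p = 0.438). With the replicate number as a block, both passed (limma adjusted p = 0.0372 for COL6A3 and 0.0331 for FN1). Same-numbered atrazine and vehicle libraries deviated together in 4 of 5 pairs, with correlations over 0.1 and up to 0.523. The pair numbered 2 did not, at -0.127, so the pairing was incomplete. Over all alternatives, atrazine called from 6 to 84 of all genes. COL4A6 averaged 5.03 ± 0.380 FPKM (SD, n = 5) against 4.02 ± 0.433 FPKM (SD, n = 5), without overlap (0.27, adjusted p = 0.554). The estimate was above 0 for 22 of 29 members (75.9%), beside 48.6% of all genes, with a median of 0.10 beside -0.00456. Several members varied together and all share the vehicle libraries, so this count is no test of the set.

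Bisphenol A called 0 members and 0% of all genes, while 3 members and 573 of all 11080 genes had an unadjusted p under 0.05 in limma. LAMA4 came closest: it read 1.67, 1.60, 1.31, 1.68 and 1.42 FPKM with bisphenol A and 0.947, 1.05, 1.15, 1.16 and 0.874 FPKM in vehicle. The groups did not overlap (0.32, SE 0.08, adjusted p = 0.343), at the lowest depth of any group. COL1A2 averaged 36.3 against 30.5 FPKM (0.24, adjusted p = 0.943). The estimate was above 0 for 24 of 29 members (82.8%), beside 43.8% of all genes, with a median of 0.09 beside -0.02. As with atrazine, this count is no test of the set.

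PFOA called 0 members and 0.162% of all genes, and DEHP 0 members and 0.00903%, with 3 members (10.3%) and 1 member (3.45%) at an unadjusted p under 0.05, beside 5.79 and 7.93% of all genes. With PFOA, COL15A1 averaged 1.22 ± 0.121 FPKM (SD, n = 5) against 0.895 ± 0.138 FPKM (SD, n = 5) in vehicle (0.23, adjusted p = 0.795) and COL6A3 2.04 against 1.59 FPKM (0.24, adjusted p = 0.775). With DEHP, NID2 averaged 4.50 FPKM (0.20, adjusted p = 0.715) and COL4A6 4.75 FPKM (0.19, adjusted p = 0.691). The mean of the 5 compounds against vehicle called 0.253% of all genes and 0 members, and 5 members (17.2%) had an unadjusted limma p under 0.05, beside 7.20% of all genes. In that comparison COL11A1 came to -0.32 (SE 0.09, adjusted p = 0.164). Its call was gained without the bisphenol A libraries (-0.38, adjusted p = 0.0204) and in the blocked fit (-0.32, adjusted p = 0.0494). COL6A3 and NID2 followed at 0.22 and 0.20 (adjusted p = 0.419 and 0.661).

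The width of the intervals limits what these zeros mean. The 95% interval of a member against vehicle reached a median of 0.21 to either side of its estimate for 4 compounds and 0.23 for DEHP. It lay within 0.5 of 0 for 26 of 29 members with tributyltin and atrazine, 28 with PFOA and bisphenol A and 27 with DEHP.

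**Figure D3:**
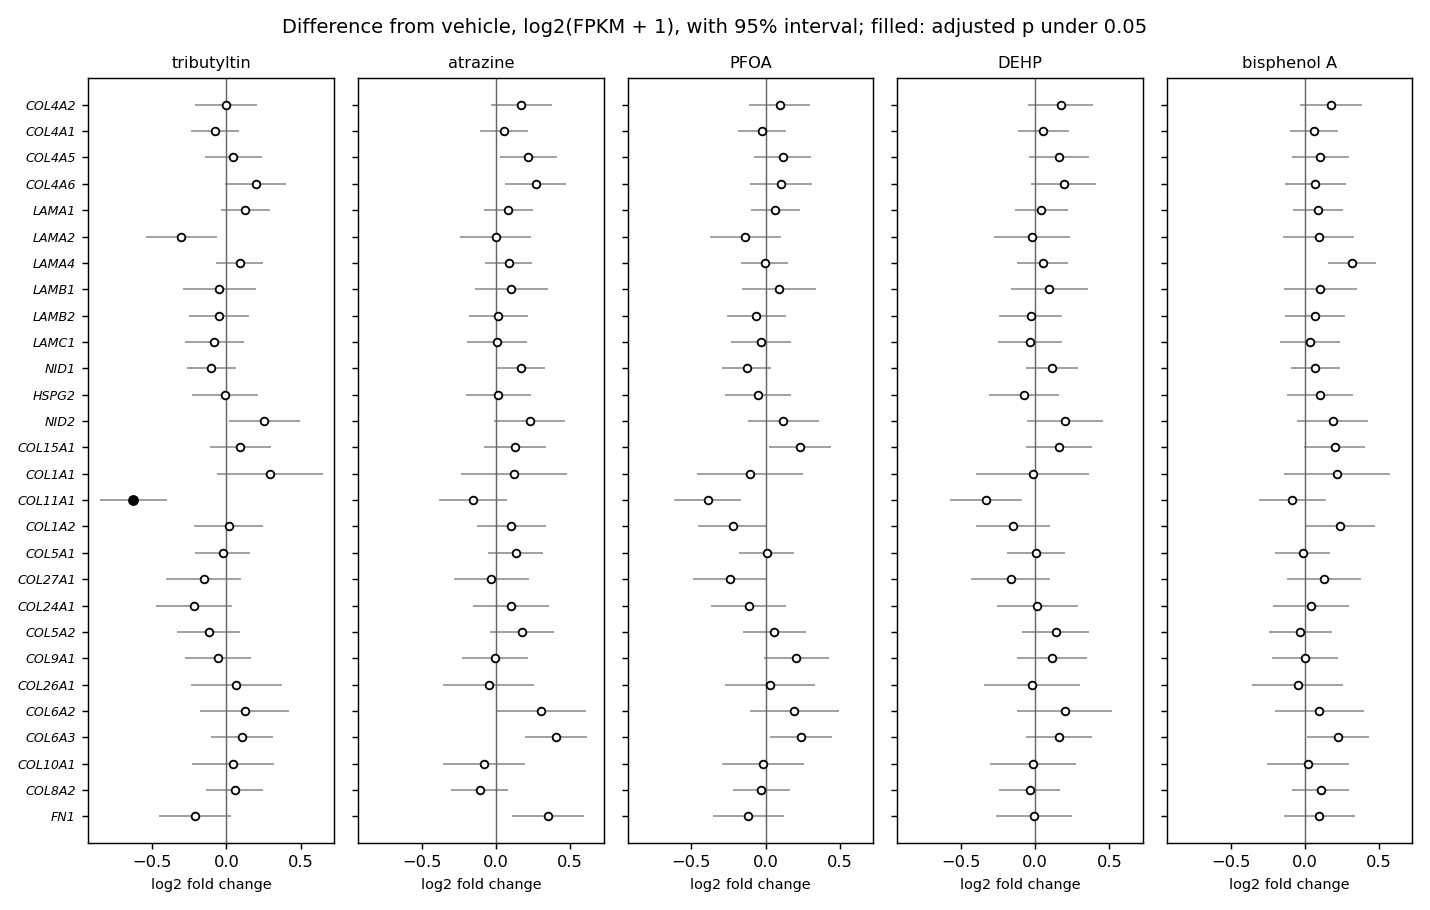
Difference from vehicle of 28 tested members for each compound, as log2 fold change of FPKM + 1 with its 95% interval; filled points have an adjusted p under 0.05. The only filled point is COL11A1 with tributyltin, at -0.63.

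Enzymes that modify and fold collagen were followed as a list of 30 genes. Of these, 23 were in the table and 20 passed the filter. With tributyltin 1 rose and 2 fell, where 1.25% of all genes tested were called. For each of the other compounds 0 passed, where at most 0.19% of all genes were called. P4HA2 and P4HA1, catalytic subunits of the prolyl hydroxylase that stabilises the collagen helix, went from 16.7 ± 1.70 to 11.03 ± 1.86 FPKM (-0.56, adjusted p = 0.00147) and from 49.0 ± 9.39 to 33.0 ± 4.10 FPKM (-0.54, adjusted p = 0.00846; SD, n = 5 each). LEPREL1, another collagen prolyl hydroxylase, went from 4.19 ± 0.385 to 6.77 ± 0.756 FPKM (0.58, adjusted p = 0.008; SD, n = 5 each). The collagen chaperone SERPINH1 averaged 123 FPKM over all libraries and was not among the genes that passed. Against vehicle, 0 of 9 tested feeder markers, 0 of 9 pluripotency genes and 0 of 3 endoderm markers passed for any compound. With at most 1.25% of all genes called, these zeros say little about lists this short. Tributyltin against the other compounds called 1.94% of all genes. Of the 20 collagen enzymes, LEPREL1 was higher (0.43, limma adjusted p = 0.0142) and P4HA2 lower (-0.34, adjusted p = 0.022). Of 9 tested pluripotency genes 1 was called, DNMT3B, which was higher (0.37, limma adjusted p = 0.004). Of 3 tested endothelial markers 1 was called, KDR, which was lower (-0.37, limma adjusted p = 0.0148). The median of these 3 was -0.00775, with 1 of 3 above 0, so KDR does not stand for its list.

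Chains that share a trimer or a network were compared across the 29 libraries after the group means were removed. The 9 pairs with both genes past the filter were tested by permutation within groups, with p adjusted over the 9 pairs. The shuffling treats libraries of a group as interchangeable. For several members, however, libraries of the same number deviated to the same side in every group, as given below. The p-values do not account for this and may be too small. LAMB1 and LAMC1 varied together (r = 0.87, rho = 0.83, adjusted p = 9e-05 for both, from a raw p of 1e-05, the smallest these permutations can give). LAMA1 and LAMC1 did so with r = 0.71 (rho = 0.64, adjusted p = 0.000945 and 0.00286), and NID1 and LAMC1 with r = 0.53 (rho = 0.51, adjusted p = 0.0134 and 0.0189). COL4A1 and COL4A2 had r = 0.60 (rho = 0.62, adjusted p = 0.0012 and 0.00286) and COL4A5 and COL4A6 r = 0.41 (rho = 0.42, adjusted p = 0.0297 and 0.0505). Leaving out the 2 libraries farthest from the median of the gene named first gave r of 0.86, 0.74, 0.46, 0.53 and 0.40 for these pairs, the last with an adjusted p of 0.0586 at nearly the same r. With the mean of each replicate number removed, COL4A5 and COL4A6 had r = 0.66 (adjusted p = 0.00519).

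Type I collagen did not show this pattern. COL1A1 and COL1A2 code for 1 trimer, yet no relation was detected between their levels (r = -0.03, rho = -0.01, adjusted p = 0.892 and 0.98; r = -0.09 without 2 libraries). The ratio of COL1A1 to COL1A2 ranged from 0.929 to 2.49 over the libraries, with a mean of 1.65 ± 0.389 (SD, n = 29). COL1A1 instead went with COL4A1 of the basement membrane (r = 0.61, rho = 0.61, adjusted p = 0.00155 and 0.00286; r = 0.63 without 2 libraries) and against FN1 (r = -0.56, rho = -0.54, adjusted p = 0.0134 and 0.0159; r = -0.72 without 2 libraries). COL5A1 and COL5A2 also ran in opposite directions (r = -0.49, rho = -0.47, adjusted p = 0.0161 and 0.0307; r = -0.49 without 2 libraries). Without centring on the group means, COL1A1 and FN1 came to r = -0.33 (adjusted p = 0.101) and COL5A1 and COL5A2 to r = -0.18 (adjusted p = 0.352), so both calls were lost. Without the bisphenol A libraries, 4 of the 9 pairs passed in place of 8. The r of the 4 lost pairs changed little, to 0.38 for COL4A5 and COL4A6, -0.48 for COL5A1 and COL5A2, 0.49 for NID1 and LAMC1 and -0.49 for COL1A1 and FN1, with adjusted p from 0.0529 to 0.0754.

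**Figure D4:**
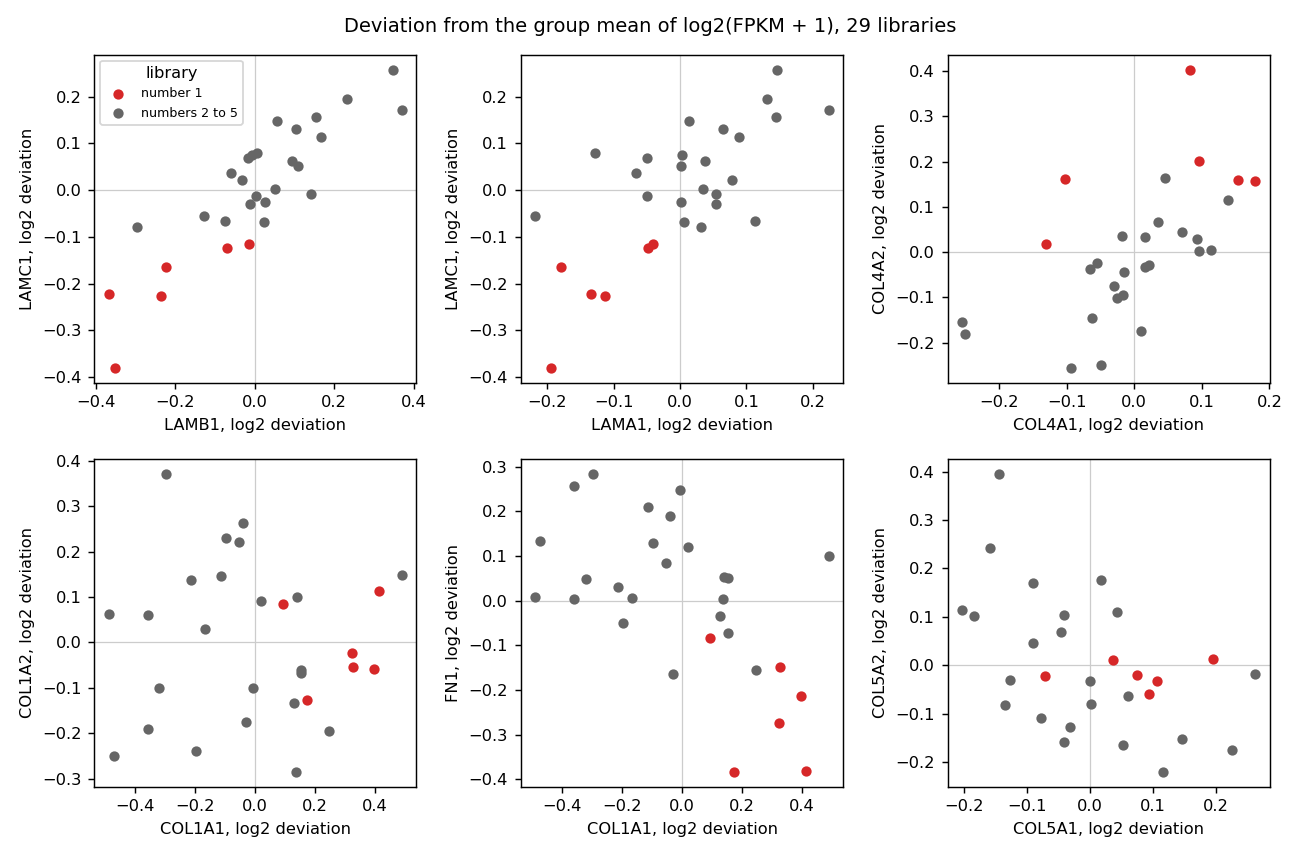
Deviation from the group mean of log2(FPKM + 1) in 29 libraries for 6 pairs of chains, with libraries numbered 1 in red. LAMB1 and LAMC1 lie along a line (r = 0.87), COL1A1 and COL1A2 do not (r = -0.03), and the red points sit low for LAMC1 and FN1 and to the right for COL1A1.

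For several members, picked out after their values were seen, the library numbered 1 in the labels lay to the same side in every group. COL1A1 was above its group mean in 6 of 6 such libraries, by 0.29 on the log2 scale on average, as were COL26A1 (0.28), COL6A2 (0.26), COL27A1 (0.24), COL4A2 (0.18) and HSPG2 (0.16). FN1 (-0.25), LAMB1 (-0.21), LAMC1 (-0.21), NID2 (-0.14) and LAMA1 (-0.12) were below it in 6 of 6. Other numbers did so too: of the 29 members, 7 lay above and 3 below their group means in all 6 libraries numbered 3, 6 above and 4 below in all 5 numbered 5, 0 above and 4 below in all 6 numbered 4, and 0 above and 1 below in all 6 numbered 2. Of those numbered 3, LAMA2 (0.21) and COL6A2 (-0.15) lay farthest out, and of those numbered 5, COL26A1 (0.20) and COL4A5 (-0.21). The share of all genes that did so was not counted, so these counts do not set the members apart. Over all tested genes, same-numbered compound and vehicle libraries correlated over 0.1 in 5 of 5 tributyltin pairs and 4 of 5 atrazine pairs. For PFOA it was 3 of 5, for DEHP 3 of 4 and for bisphenol A 4 of 5. With the mean of each number removed as well, LAMB1 and LAMC1 had r = 0.74, LAMA1 and LAMC1 0.58, COL1A1 and COL4A1 0.56, and COL1A1 and FN1 -0.45, while COL5A1 and COL5A2 turned to r = 0.21. The labels do not say what the number stands for, and its part in the pairs was not tested further.

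Each of the 29 members was also set against the mean level of the 9 feeder markers past the filter, in the same way. That mean leaves out DCN, LUM, PRRX1 and TWIST2, so it cannot measure feeder content. NID1 was the 1 gene past the threshold (r = 0.79, rho = 0.79, adjusted p = 0.00116 and 0.00087; r = 0.74 without the 2 libraries farthest from the median marker level, and 0.83 with the number removed). The median over the members was r = 0.22. For the fibrillar chains COL1A1, COL1A2 and COL11A1, r was 0.23, 0.30 and -0.01 (adjusted p of 0.421, 0.329 and 0.985), and for COL5A2 0.57 (adjusted p = 0.0791). With a pseudocount of 0.1 in place of 1, 5 members passed, and 2 did so without centring or with the number removed.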

How the data were processed

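RNA of 29 samples, 100 ng each, was amplified (NuGEN Ovation) and read as 50 nt single ends, per the labels' protocols. The authors deposited 1 table of FPKM for 16048 genes. The submitters' processing notes name TopHat2 2.1.1, SAMtools, Cuffdiff 2.2.1 and the mouse build GRCm38.p5, with no role for each; the monkey build and the handling of mouse reads are not given in the sources used here. Amplification can change relative levels. Total read counts were not used: relative depth came from the steps of 1231 low genes, of which 97.4% gave a step (values within 0.1 read of a whole number).

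Groups follow the sample titles. Genes whose mean reached 1 FPKM were tested with limma 3.58.1 (R 4.3.3; trended empirical Bayes, two-sided, Benjamini-Hochberg over 11080 genes) on log2(FPKM + 1), with 6 groups in 1 fit. The script was tested on simulated data. Correlations used 100000 permutations within groups, two-sided, with Python 3.11.15 and scipy 1.17.1. Alternatives were another pseudocount (0.1), other filters (none, or a mean of 5 FPKM), median-of-ratios and quantile scaling, library weights, a feeder marker term, a replicate block, fits on fewer groups and leaving out each library.

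Members with values were, by rule, the 2 highest of each class, those called, the 3 with the smallest p in each comparison and those of the pairs; from companion lists up to 3 genes by p. COL24A1, COL27A1 and the low members were named beyond the rule to complete their classes, as were markers and receptors with levels; KDR was named after its values were seen. For 1 member, kept in the fits and counts, values are not reported here. The members, lists and tests were chosen with earlier results of these data known. As a check of pairing, same-numbered tributyltin and vehicle libraries deviated together (correlations of 0.175 to 0.654, 5 of 5 pairs over 0.1), and for the other compounds 1 or more pairs did not exceed 0.1. The replicate block left the 1 member call of tributyltin and raised its calls over all genes from 138 to 420.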

Additional observations from a re-analysis of the deposited data

Results flagged for a closer look

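Groups of 4 or 5 libraries were searched for a library far from the rest in 162 gene and group combinations of the 27 described members, and 4 stood out, or 2.47%, where chance gives about 1 in 20. FN1 read 26.6 FPKM in vehicle library 1, below the next lowest vehicle library at 35.7 FPKM. In bisphenol A, LAMA2 read 3.60 FPKM in library 3 against 2.43 FPKM in the next highest and VTN read 0.821 FPKM in library 2 against 0.565 FPKM. These libraries belong to the group with the lowest depth. LAMB1 read 30.7 FPKM in atrazine library 4, next to 29.4 FPKM, in a group whose other values lay close together.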

How the results depend on the processing

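The 21 tests of single members under all alternatives gave 797 values: 787 kept direction and side of the threshold, 7 gained a call, 3 lost it and 0 turned sign. Many of the alternatives left out a library outside the groups compared, so their values could hardly change. With the replicate block, 2 members were called for atrazine (COL6A3 and FN1) in place of 0, 1 for the mean of the 5 compounds in place of 0 and 3 for tributyltin against the other compounds (COL11A1, FN1 and LAMA2) in place of 1; it changed no other count of members called. Leaving out the bisphenol A libraries gave 1 member for the mean of the 5 compounds and 4 pairs of chains in place of 8. Leaving out 1 library at a time gave 0 to 2 members for tributyltin against the other compounds. The count of members related to the feeder markers was 2 without centring, 5 with a pseudocount of 0.1 and 2 with the replicate block, in place of 1. COL1A1 and COL1A2 turned to r = 0.22 without centring and 0.00718 without the bisphenol A libraries, and COL5A1 and COL5A2 to r = 0.21 with the replicate block; the cause was not tested. Calls over all genes ranged from 44 to 420 for tributyltin, 6 to 84 for atrazine, 7 to 63 for PFOA, 0 to 74 for DEHP, 0 to 3 for bisphenol A, 13 to 104 for the mean of the 5 compounds and 76 to 529 for tributyltin against the others. A filter at a mean of 5 FPKM gave no value for members below it, nor did leaving out the bisphenol A libraries for bisphenol A. Depth limits the 14 members under 1 FPKM, and the values of bisphenol A most.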
